A study of Mus musculus with 6 samples.

Results

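The genes described here are 31 that encode the enzymes of glycolysis, the bifunctional regulators of its rate, the carriers of glucose and lactate, and the accessory protein of the lactate carriers. They were chosen by symbol from a fixed list, and all 31 were found among the 49997 gene names of the count tables. Of these, 30 passed the filter on low counts and were tested, and Slc16a8 did not. Together the 31 genes took 3.77 to 4.41% of all gene counts in control libraries and 3.69 to 3.89% in libraries with the Nr2e3 guide.

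Glycolysis splits glucose into pyruvate in the cytosol, and lactate dehydrogenase can then reduce pyruvate to lactate, which regenerates the NAD+ that glycolysis needs. Photoreceptors are known for running this pathway to lactate even where oxygen is present, since they renew the lipids and proteins of their outer segments daily. Glucose reaches them from the choroid through the pigment epithelium by way of the transporter GLUT1, and lactate leaves through monocarboxylate transporters that need basigin at the membrane. Most steps have several isoforms, which differ in regulation and in the tissues that use them.

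RNA was counted in photoreceptors sorted for the red protein mCherry from mice of the Rosa26-Cas9 line, in which every cell makes SpCas9. A virus of the adeno-associated kind with a 7m8 coat had been injected under the retina. It carried mCherry under a human GRK1 promoter, which is used to direct expression to photoreceptors, and a guide RNA that was either directed at Nr2e3 or non-targeting. Both groups therefore carry Cas9, virus and reporter, and differ in the guide. Each of the 6 libraries (3 per group) came from about 100000 cells of 2 retinas of 1 animal, collected 6 months after injection. For the age at injection the labels differ, with postnatal day 21 in one place and 4 weeks in another. All 3 control animals and guide replicate 1 were male, and guide replicates 2 and 3 were female. Sex is thus not balanced between the groups.

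Libraries held 24705561 to 34286248 gene counts. Nr2e3, a nuclear receptor of rods and the target of the guide, was at 2094, 1906 and 2244 CPM in guide replicates 1 to 3 and at 1756, 1572 and 1507 CPM in control replicates 1 to 3 (CPM is the count scaled to the normalised library size). Every guide library thus lay above every control library (log2 fold change 0.37, SE 0.13, adjusted p = 0.716, edgeR). Editing of the gene was not measured, and the labels are therefore not checked by this level. The 11 rod markers summed to 148298 to 189727 CPM in control and 157649 to 171645 CPM in guide libraries. The 11 cone markers summed to 3835 to 8463 CPM in control and 13433 to 17336 CPM in guide libraries. Of this, Gnat2, the cone transducin, was at 772 ± 512 CPM in control and 7612 ± 708 CPM in guide libraries (SD, n = 3 each), while 7 of the 11 markers had a negative log2 fold change. Without Gnat2 the cone sums overlapped, at 3651 to 7458 CPM in control and 6157 to 8910 CPM in guide libraries. Control replicate 3 stood apart from the other controls. Its 13 microglia markers summed to 325 CPM against 36.1 and 38.7 CPM in control replicates 1 and 2, and its cone markers had the lowest sum of the 6 libraries. The summed microglia markers were 38.5, 191 and 129 CPM in guide replicates 1 to 3. In none of the 12 marker lists was any gene at 0 in all libraries. Cells of a type that are fewer and cells that hold less RNA cannot be told apart in such sorted pools.

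Levels of different genes were compared as CPM per kb of exon, since long transcripts collect more reads. In control libraries Aldoa, the aldolase that cuts fructose bisphosphate, had the highest level at 2499.6 ± 216 CPM per kb (SD, n = 3), followed by Pkm, pyruvate kinase, at 2059 ± 93.8, Ldha, the lactate dehydrogenase subunit A, at 1473 ± 41.5, Gapdh, glyceraldehyde phosphate dehydrogenase, at 1215 ± 124, and Eno1, enolase 1, at 932 ± 64.4. No control library of one of these 5 reached into the range of the next. The same 5 genes ranked 1 to 5 in guide libraries. By raw counts they stood 8th (Pkm), 11th (Aldoa), 16th (Eno1), 17th (Ldha) and 19th (Gapdh) among all genes over the 6 libraries.

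A gap separated these from the rest. Pgk1, phosphoglycerate kinase, followed at 254 ± 23.6 CPM per kb in controls and overlapped with Tpi1, triosephosphate isomerase, at 244 ± 63.0. Below Tpi1, neighbours in the order overlapped from Aldoc, the brain-type aldolase (174 ± 25.2), down to Pfkfb2 (41.2 ± 4.47), which lay above Slc16a1 (31.3 ± 7.56) in every control library. The lowest tested gene was Slc16a7, the transporter MCT2, at 0.540 ± 0.366 CPM per kb. Slc16a8, the transporter MCT3 that marks pigment epithelium, had 0, 0 and 6 counts in control replicates 1 to 3 and 1, 0 and 7 counts in guide replicates 1 to 3, where 3 counts correspond to 0.0802 to 0.131 CPM. The order depends on the length used: with the longest transcript in place of all exons, Eno1 ranked 4th and Gapdh 5th, because the annotated exons of Eno1 add up to 5379 bases and its longest transcript to 2027.

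**Figure D1:**
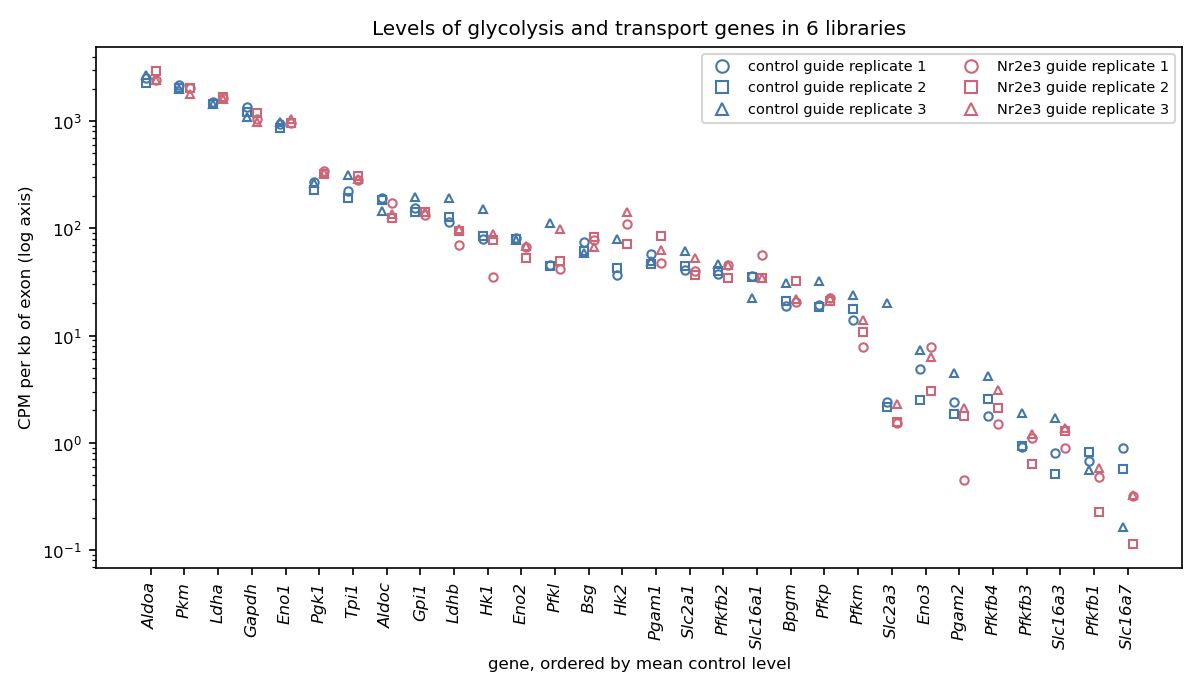
Level of 30 genes in each library as CPM per kb of exon on a log axis, ordered by the control mean; blue symbols are control libraries, red symbols are Nr2e3 guide libraries, and the shape gives the replicate. Aldoa, Pkm, Ldha, Gapdh and Eno1 form the upper group in both, and Slc2a3 in control replicate 3 lies far above its other 5 libraries; Slc16a8 is not drawn because 3 of its values are 0.

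The comparison of guide with control libraries asks whether photoreceptors that received the Nr2e3 guide differ in this pathway. In a quasi-likelihood fit of 17138 genes by edgeR, with p-values adjusted after Benjamini and Hochberg, 0 of the 30 members passed an adjusted p of 0.05, against 0.344% of all genes tested (0.315% higher and 0.0292% lower with the guide). DESeq2 and limma-voom also called 0. An unadjusted p under 0.05 was reached by 6 members in edgeR, against 5.69% of all genes (3.08% higher, 2.61% lower). In DESeq2, which covered all 31 members, 4 reached it, and in limma-voom 5. The share over all genes was taken for edgeR only, so these 2 counts have no like background. The 6 in edgeR were Hk2 and Pgk1 with higher and Ldhb, Pfkm, Slc2a3 and Eno2 with lower mean levels in guide libraries. A positive log2 fold change was found for 13 members, against 48.5% of all genes. The median log2 fold change of guide over control was -0.08 over the 30 members and -0.01 over all genes tested. Without control replicate 3 these medians were 0.09 and 0.01. For 6 members the groups did not overlap (2 with guide above, 4 with guide below), while 12.1% of all tested genes showed such separation (6.2% above, 5.91% below).

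**Figure D2:**
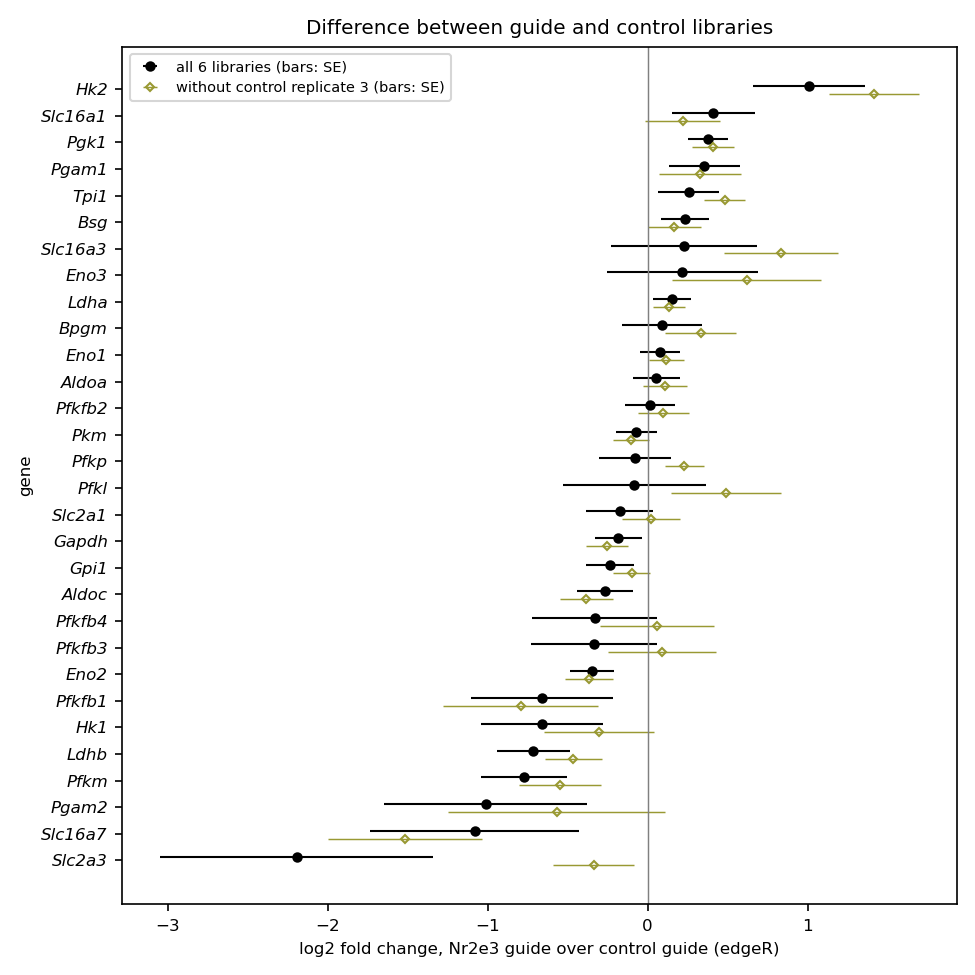
Log2 fold change of guide over control for the 30 tested genes (black, all 6 libraries; open diamonds, without control replicate 3), with standard errors derived from the F statistic of edgeR. Hk2 has the highest value in both fits, and the value of Slc2a3 moves from -2.20 to -0.34 when control replicate 3 is left out.

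Glucose enters through 2 carriers of the list. Slc2a1, which encodes GLUT1, was at 143, 155 and 215 CPM in control replicates 1 to 3 and at 139, 129.8 and 186 CPM in guide replicates 1 to 3. Replicate 3 was the highest of its group on both sides, and the groups overlapped (log2 fold change -0.17, SE 0.21, adjusted p = 0.995). The value was 0.021 without control replicate 3. Slc2a3, the high-affinity carrier GLUT3 of neurons and also of phagocytes, was at 17.3, 15.6 and 147 CPM in control and at 11.1, 11.4 and 16.7 CPM in guide libraries. A single library, control replicate 3, carries the difference (log2 fold change -2.20, SE 0.85, adjusted p = 0.792), and without it the value was -0.34 (SE 0.25, adjusted p = 0.830). The microglia markers were also highest there (10 of the 13 peaked in that library), and their part in the level of Slc2a3 was not tested.

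Hexokinase, which traps glucose in the cell as its phosphate, showed the widest difference in isoform use. Hk1, the hexokinase of most tissues, was at 678, 724 and 1299.7 CPM in control replicates 1 to 3 and at 299, 659.5 and 749 CPM in guide replicates 1 to 3 (log2 fold change -0.66, SE 0.38, adjusted p = 0.992). The value was -0.31 without control replicate 3, -0.36 without guide replicate 1 and -1.60 in males only. Hk2, the inducible hexokinase that is typical of muscle, tumours and photoreceptors, was at 221, 257 and 476 CPM in control and at 648, 422 and 849 CPM in guide libraries. For both genes the groups overlapped. Guide replicate 3 lay above control replicates 1 and 2 for Hk1, and control replicate 3 lay above guide replicate 2 for Hk2. For Hk2 the log2 fold change was 1.01 (SE 0.35, adjusted p = 0.682). It was 1.416 (SE 0.28, adjusted p = 0.144) without control replicate 3. Over 18 other settings the smallest adjusted p was 0.136, and the direction stayed the same in all 18.

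Expressed as the share of hexokinase transcripts, per kb of exon, the libraries separated. Hk1 made up 68.3, 66.4 and 65.6% in control replicates 1 to 3, a narrow range, and 24.4, 52.2 and 38.2% in guide replicates 1 to 3. The mean share of Hk1 was 66.8 ± 1.36% in control and 38.3 ± 13.9% in guide libraries (SD, n = 3 each), a difference of -28.5 percentage points. An exact two-sided permutation test gave p = 0.1, the smallest that 3 libraries against 3 allow (0.18 adjusted over the 9 steps compared). Without control replicate 3 the difference was -29.0 points, and in males alone, where guide replicate 1 meets the 3 controls, it was -42.3 points. The summed level of both hexokinases was 159 ± 63.7 CPM per kb in control and 174 ± 48.6 CPM per kb in guide libraries, with overlapping groups. Which isoform leads in guide libraries depends on the length: Hk2 averaged 61.7% with all exons, 53.5% with no division by length and 47.6% with the longest transcript, and in each case every guide library lay above every control library.

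**Figure D3:**
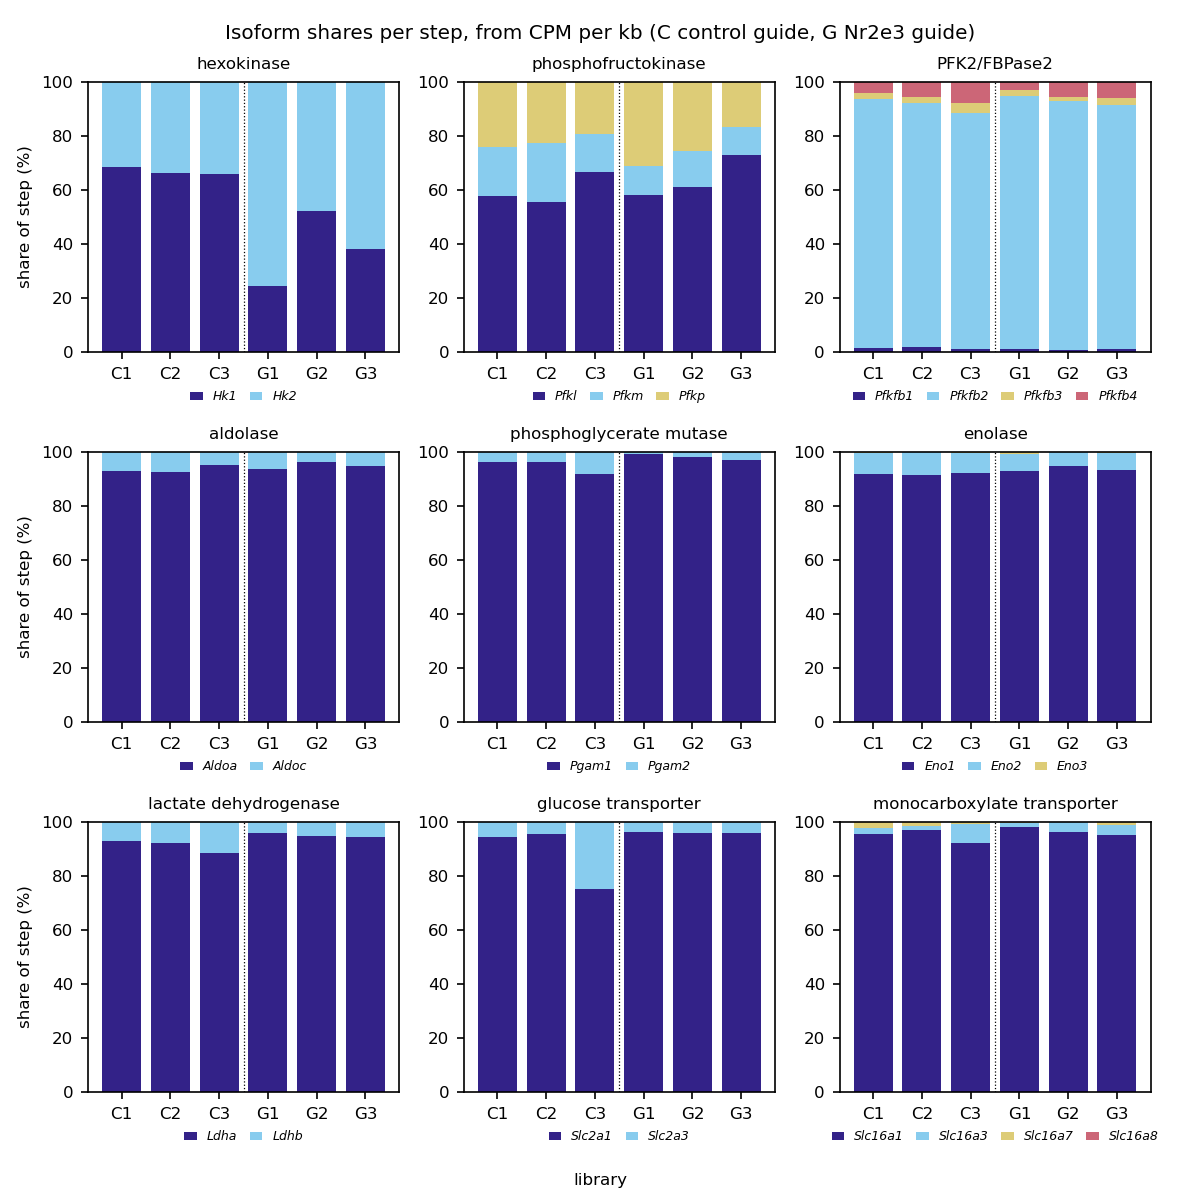
Share of each isoform in the transcripts of its step, from CPM per kb of exon, in control replicates 1 to 3 (C1 to C3) and guide replicates 1 to 3 (G1 to G3). Hk1 takes 65.6 to 68.3% of hexokinase in controls and 24.4 to 52.2% in guide libraries, whereas Aldoa, Eno1, Ldha and Slc16a1 take most of their steps in all 6 libraries.

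The 250 bases before the annotated starts of the hexokinase and lactate dehydrogenase genes are shown because these are the first and the last enzyme of the path to lactate, and the isoform shares of both did not overlap between groups. They come from RefSeq on GRCm38.p6, where 28 of the 31 genes had an entry, with 45 start sites in all. Each runs 5′ to 3′ on the strand of the gene. Capitals mark matches, on either strand, to ACGTG, the core of the site of the hypoxia-inducible factors (it also lies within CACGTG, the E-box of MYC and related factors), to TAATCC, the core of the site of the photoreceptor factor CRX, and to AAGTCA, a half-site of NR2E3.
Hk1, inner start, chr10:62340422-62340671, minus strand: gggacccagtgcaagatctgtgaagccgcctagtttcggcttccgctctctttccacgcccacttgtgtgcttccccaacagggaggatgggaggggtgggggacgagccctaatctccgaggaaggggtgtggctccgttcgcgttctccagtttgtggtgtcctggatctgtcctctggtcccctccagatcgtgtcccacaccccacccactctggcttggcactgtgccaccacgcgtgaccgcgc
Hk1, outer start, chr10:62379909-62380158, minus strand: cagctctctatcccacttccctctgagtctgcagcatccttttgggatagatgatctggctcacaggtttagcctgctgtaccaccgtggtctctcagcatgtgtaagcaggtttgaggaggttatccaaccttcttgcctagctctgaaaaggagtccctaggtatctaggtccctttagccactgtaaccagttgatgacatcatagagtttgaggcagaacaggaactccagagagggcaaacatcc
Hk2, chr6:82774455-82774704, minus strand: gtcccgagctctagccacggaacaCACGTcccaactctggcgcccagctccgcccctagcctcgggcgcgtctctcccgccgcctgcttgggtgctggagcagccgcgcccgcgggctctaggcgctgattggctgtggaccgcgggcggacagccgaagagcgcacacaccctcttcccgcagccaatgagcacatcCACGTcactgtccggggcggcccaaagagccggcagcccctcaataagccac
Ldha, upstream start, chr7:46845554-46845803, plus strand: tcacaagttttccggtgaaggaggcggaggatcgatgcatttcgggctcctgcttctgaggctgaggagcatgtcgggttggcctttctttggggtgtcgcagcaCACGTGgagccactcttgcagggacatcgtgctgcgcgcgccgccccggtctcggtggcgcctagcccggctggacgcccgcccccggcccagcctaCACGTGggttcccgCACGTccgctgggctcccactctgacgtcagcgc
Ldha, downstream start, chr7:46846832-46847081, plus strand: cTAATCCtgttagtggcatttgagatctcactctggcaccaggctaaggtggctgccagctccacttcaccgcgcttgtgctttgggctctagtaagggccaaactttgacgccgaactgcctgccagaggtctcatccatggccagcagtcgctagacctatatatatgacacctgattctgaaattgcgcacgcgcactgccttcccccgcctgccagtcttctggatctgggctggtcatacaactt
Ldhb, chr6:142507958-142508207, minus strand: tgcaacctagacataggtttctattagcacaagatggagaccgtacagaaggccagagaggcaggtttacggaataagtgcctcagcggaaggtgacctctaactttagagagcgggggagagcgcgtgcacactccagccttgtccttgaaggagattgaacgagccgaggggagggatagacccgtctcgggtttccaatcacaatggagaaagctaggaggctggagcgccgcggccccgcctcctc
Hk2 held 2 matches to ACGTG and the upstream start of Ldha held 5, counted on both strands so that each of its 2 E-boxes counts as 2. Neither window of Hk1 nor that of Ldhb held one. The downstream start of Ldha held 1 match to TAATCC. Of the 45 member windows, 16 (35.6%) held ACGTG, against 16.6% of 32851 windows of all genes of the same length. For CACGTG the shares were 11.1 and 6.02%, for TAATCC 11.1 and 6.25%, and for AAGTCA 6.67 and 13.1%. The windows of the members had a median G and C content of 58.4%, against 52.4% for all windows. A match of so few letters is a description of the sequence only.

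Upper glycolysis after hexokinase was led by Gpi1, Pfkl and Aldoa. Gpi1, glucose phosphate isomerase, was at 1004, 924 and 1256 CPM in control and at 867, 914 and 922 CPM in guide replicates 1 to 3. The guide libraries lay just below all controls, but overlapped with them without TMM factors (log2 fold change -0.24, SE 0.15, adjusted p = 0.995; -0.10 without control replicate 3). Phosphofructokinase, the main point of control, is built of liver (Pfkl), muscle (Pfkm) and platelet (Pfkp) subunits. Pfkl was at 302, 296 and 743 CPM in control and at 278, 333 and 653 CPM in guide libraries, with replicate 3 far above the rest of its group in both (log2 fold change -0.08, SE 0.45, adjusted p = 0.997). Its value was 0.49 (SE 0.34) without control replicate 3 and 0.036 without both replicate-3 libraries. Pfkm was at 47.1, 58.4 and 79.7 CPM in control and at 25.9, 36.3 and 46.2 CPM in guide libraries. Every guide library lay below every control library, by a small margin at the boundary, and without TMM factors the groups overlapped. The log2 fold change was -0.77 (SE 0.27, adjusted p = 0.692). It was -0.55 (SE 0.25, adjusted p = 0.638) without control replicate 3 and -1.27 in males only. Exons of Pfkm overlap Senp1 on the opposite strand and Gm26513 on the same strand over 10.7% of their length, and reads there cannot be assigned with certainty. Pfkp ranged from 245 to 432 CPM in control and from 283 to 300.3 CPM in guide libraries. Per kb, Pfkl took 59.8 ± 5.87% of the step in control and 64.0 ± 7.93% in guide libraries, and Pfkm 18.02 ± 3.79% and 11.5 ± 1.57%, with the groups apart only for Pfkm.

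The bifunctional enzymes that make or remove fructose 2,6-bisphosphate, an activator of phosphofructokinase, were almost all Pfkfb2 transcripts. Pfkfb2 was at 272, 290.2 and 335 CPM in control and at 326, 250.3 and 328 CPM in guide libraries, with overlapping groups (log2 fold change 0.01, SE 0.16, adjusted p = 0.998). It held 89.9 ± 2.19% of the step in control and 92.0 ± 1.70% in guide libraries. The other three, Pfkfb1, Pfkfb3 and Pfkfb4, stayed at or below 20.4 CPM in every library, and for each of them the groups overlapped. Aldoa was at 7407, 6594 and 7828 CPM in control and at 7100.4, 8593 and 6986 CPM in guide libraries (log2 fold change 0.06, SE 0.15, adjusted p = 0.995). Guide replicate 2 was the highest and control replicate 2 the lowest. Aldoc, which is also a gene of Muller glia, was at 408 to 566 CPM in guide and 475 to 627 CPM in control libraries. Aldoa took 93.4 ± 1.27% of aldolase in control and 94.6 ± 1.29% in guide libraries. The summed Muller glia markers (14 genes) were 724 to 1142 CPM in control and 817 to 1305 CPM in guide libraries.

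Lower glycolysis, where ATP is made, includes Gapdh, Eno1 and Pkm, which were among the 5 highest members. Tpi1 was at 616, 531 and 865 CPM in control and at 769, 841 and 795 CPM in guide replicates 1 to 3. Control replicate 3 was the highest of all 6, and without it the log2 fold change moved from 0.26 (SE 0.19, adjusted p = 0.995) to 0.48 (SE 0.13, adjusted p = 0.292). Gapdh was at 5554, 4987 and 4528 CPM in control and at 4294, 4958 and 4012 CPM in guide libraries (-0.18, SE 0.15, adjusted p = 0.995). Guide replicate 2 lay within the control range. Pgk1 was at 604, 509.8 and 598 CPM in control and at 766, 722 and 736 CPM in guide libraries. All guide libraries lay above all controls, by a difference that varied little with the settings (log2 fold change 0.38, SE 0.13, adjusted p = 0.632; 0.30 to 0.42 over 18 other settings, with a smallest adjusted p of 0.233).

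Pgam1, phosphoglycerate mutase, was at 115, 91.6 and 98.1 CPM in control and at 94.2, 169 and 125 CPM in guide libraries (log2 fold change 0.35, SE 0.22, adjusted p = 0.995). In males only the value was -0.12. Pgam1 made up 94.6 ± 2.49% of the step in control and 97.9 ± 1.14% in guide libraries, and Pgam2, the muscle form, did not exceed 3.74 CPM. The groups did not overlap in this share, which for Pgam2 rests on 10 to 140 counts per library. Bpgm, which makes 2,3-bisphosphoglycerate, was at 67.7, 74.9 and 111 CPM in control and at 74.1, 116 and 79.4 CPM in guide libraries, with full overlap (0.09, SE 0.25, adjusted p = 0.995). Eno1 was at 5082, 4636 and 5318 CPM in control and at 5117, 5161 and 5576 CPM in guide libraries (0.08, SE 0.13, adjusted p = 0.995). Eno2, the enolase of neurons, was at 383, 374 and 368 CPM in control and at 313, 248 and 322 CPM in guide libraries. Its controls agreed closely, with an SD of 2.14% of their mean, and every guide library lay below them (log2 fold change -0.35, SE 0.14, adjusted p = 0.831). Per kb, Eno2 took 7.87 ± 0.578% of enolase in control and 5.95 ± 0.676% in guide libraries, while Eno3, the muscle form, stayed below 1% in all 6. Eno1 took the rest, with 91.7 ± 0.371% and 93.5 ± 0.903%.

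Pkm was at 10813, 10186 and 9894 CPM in control and at 10209, 10179.9 and 8992 CPM in guide replicates 1 to 3 (log2 fold change -0.07, SE 0.13, adjusted p = 0.995). The gene makes the M1 and M2 forms of pyruvate kinase by choice of exon, and counts per gene do not separate them. Ldha was at 5033, 4823 and 4774 CPM in control and at 5447, 5495 and 5307 CPM in guide libraries, with guide above control throughout but by little, and with overlap when TMM factors were not used (0.15, SE 0.12, adjusted p = 0.995). Ldhb, the subunit of tissues that burn lactate, was at 180.5, 199 and 299 CPM in control and at 110.0, 147 and 156 CPM in guide libraries. No guide library reached the lowest control (log2 fold change -0.71, SE 0.23, adjusted p = 0.587), and the value was -0.47 (SE 0.18, adjusted p = 0.523) without control replicate 3. The share of Ldha in lactate dehydrogenase was 93.0, 92.0 and 88.3% in control and 95.9, 94.7 and 94.2% in guide libraries. The lowest guide library thus lay just above the highest control. The summed level of both subunits was 1617 ± 29.0 CPM per kb in control and 1724 ± 26.6 CPM per kb in guide libraries, again without overlap (exact two-sided permutation p = 0.1, the smallest possible). This p was not adjusted, and the same test gave 0.5 or more for the sum of every other step with several isoforms. Like the level of Ldha, the sum rests on TMM factors.

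Lactate leaves through the monocarboxylate transporters. Slc16a1, the transporter MCT1, was at 159.6, 156 and 99.7 CPM in control and at 247, 152 and 153 CPM in guide replicates 1 to 3 (log2 fold change 0.41, SE 0.26, adjusted p = 0.995). Guide replicate 1 was the highest library and control replicate 3 the lowest. The value was 0.22 without control replicate 3, 0.14 without guide replicate 1 and 0.82 in males only. Slc16a1 made up 94.9 ± 2.52% of the transcripts of the 4 transporters in control and 96.3 ± 1.39% in guide libraries. Slc16a3, the transporter MCT4 of highly glycolytic cells, was at 2.74 to 9.06 CPM in control and 4.78 to 7.27 CPM in guide libraries, and Slc16a7 at 1.92 to 10.6 and 1.35 to 3.89 CPM. Bsg, basigin, was at 134, 111 and 106 CPM in control and at 141, 151 and 121 CPM in guide libraries, which overlapped (0.23, SE 0.15, adjusted p = 0.995). Its retina-specific and general forms come from a single gene and were not separated. The pigment epithelium markers (8 genes), a cell layer rich in Slc16a1 and Slc16a8, summed to 5.26 to 20.7 CPM in control and 1.83 to 4.06 CPM in guide libraries.

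**Figure D4:**
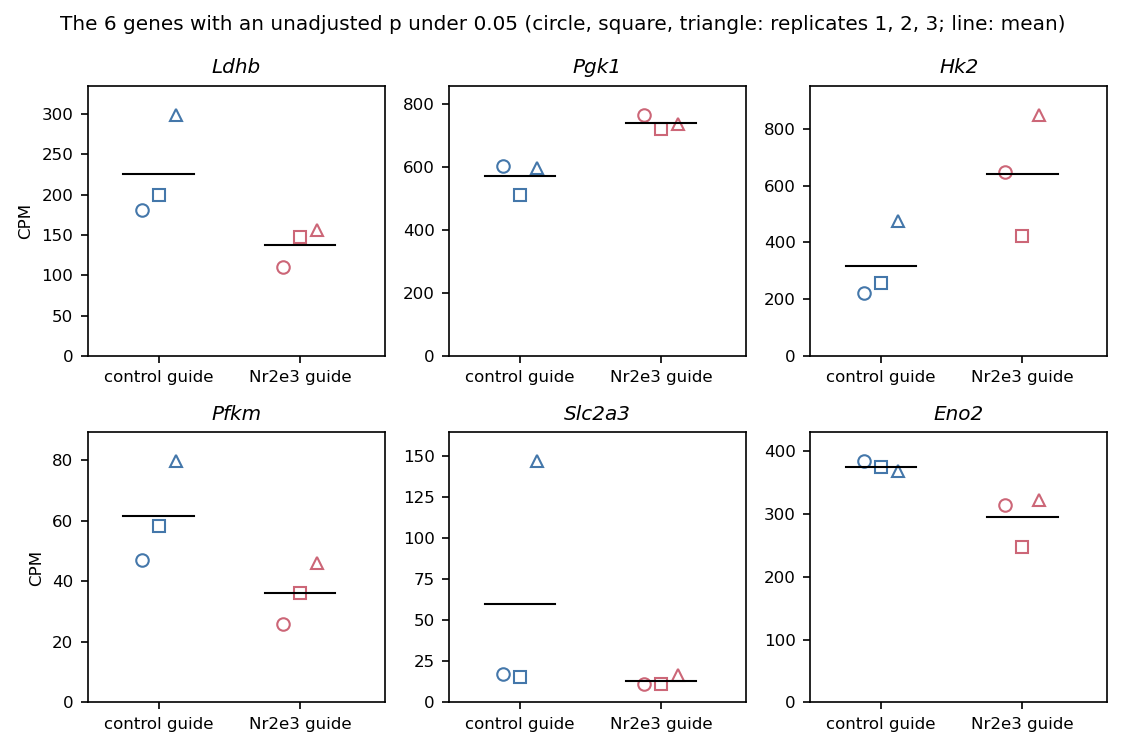
CPM in each library for the 6 genes with an unadjusted p under 0.05, with the group mean as a line (circles, squares and triangles are replicates 1, 2 and 3). Ldhb, Pgk1, Pfkm and Eno2 show groups that do not overlap on this TMM-scaled axis (those of Pfkm overlap without TMM factors), while for Hk2 control replicate 3 (476 CPM) lies above guide replicate 2 (422 CPM) and for Slc2a3 control replicate 2 (15.6 CPM) lies below guide replicate 3 (16.7 CPM).

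Across the 9 steps with several isoforms, the share of the leading control isoform did not overlap between groups in 5 (Hk1, Pgam1, Eno1, Ldha and Slc2a1), each with an exact two-sided permutation p of 0.1 and 0.18 adjusted over the 9. Hk1 was lower and the other 4 were higher in guide libraries. Shares were not computed for isoforms of other pathways, so this count has no like background. Levels of single genes did not overlap between groups for 12.1% of all genes tested. The share of Slc2a1, 94.4, 95.4 and 75.2% in control and 95.8 to 96.3% in guide libraries, differed by 7.68 points with control replicate 3 and by 1.11 points without it. In the remaining 4 steps the share of the leading isoform overlapped between groups, and its exact permutation p ran from 0.3 to 0.5. Phosphofructokinase is 1 of these 4, and there the share of Pfkm, which does not lead, was lower in all guide libraries. Sex differs between the groups, and Gnat2 stood higher in all guide libraries, as given above. The part of either in these shares was not tested. The differences in males only, such as that of Hk1 above, rest on guide replicate 1 alone, so sex and library cannot be told apart there.

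Replicate 3 stood out within both groups. Among the 30 tested members, 19 were higher in control replicate 3 than in both other controls (42.4% of all genes tested were), and 17 were higher in guide replicate 3 than in both other guide libraries (36.4% of all genes). Both held for 14 members, Hk1, Hk2, Pfkl and Slc2a1 among them, against 19.0% of all genes. In control replicate 3, 14 members exceeded 1.5 times the mean of the other 2 controls, with Slc2a3 at 8.91 times and Pfkl at 2.48 times. Among the most abundant enzymes the spread over controls was small, with an SD of 2.82% of the mean for Ldha, 4.56% for Pkm, 6.91% for Eno1 and 8.62% for Aldoa. Over the 27 members with a mean of at least 5 CPM the median of this spread was 24.2% in control and 17.7% in guide libraries, against 15.3 and 18.5% over 9534 genes. Leaving out control replicate 3 gave 6 members with an unadjusted p under 0.05, namely Hk2, Tpi1 and Pgk1 with positive and Eno2, Ldhb and Slc16a7 with negative values, against 8.6% of all genes in that fit. None of the 30 passed the adjusted threshold there (smallest adjusted p = 0.144, edgeR), against 0.5% of all genes.

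Genes around the pathway were read in the same fit, and 0 of 75 tested genes in 6 further lists passed. In the list of other isoforms and carriers, 18 of 31 genes were tested (median log2 fold change -0.37, 2 with an unadjusted p under 0.05). Slc16a6, a ketone body carrier, had the highest level at 179, 192 and 181 CPM in control and 168, 168 and 199 CPM in guide libraries (-0.04, SE 0.13). Eno4, an enolase of sperm, was next at 15.8 ± 1.75 CPM in control and 15.9 ± 4.69 CPM in guide libraries (0.01, SE 0.27). Slc16a10, a carrier of aromatic amino acids, had 3, 1 and 3 counts in control and 53, 16 and 43 counts in guide libraries (adjusted p = 0.118). DESeq2, which called 185 genes higher and 57 lower in all, called 2 genes of this list. They were Slc16a10 and Hk3, the hexokinase of myeloid cells, which had 1, 15 and 79 counts in control and 0 counts in all guide libraries and was not tested by edgeR. Slc16a4 was at 0.962 to 0.985 CPM in control and at 0.206 to 0.435 CPM in guide libraries (log2 fold change -1.47, SE 0.56, adjusted p = 0.780).

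The pentose phosphate pathway branches off at glucose 6-phosphate and supplies NADPH. Its 9 genes were all tested, 0 had an unadjusted p under 0.05, and the median log2 fold change was -0.12. Taldo1, transaldolase, was at 350.2, 354 and 335 CPM in control and 329.9, 385 and 361 CPM in guide libraries, and G6pdx, its first enzyme, at 117 to 152 and 112 to 125 CPM. The 5 tested genes that reverse glycolysis or divert its intermediates had a median of 0.10 and 0 with an unadjusted p under 0.05, among them Tigar (0.24, SE 0.17) and G6pc3 (0.10, SE 0.21). Of 12 genes that carry cytosolic NADH or pyruvate into mitochondria, 1 had an unadjusted p under 0.05 (median -0.20). That was Gpd2, the mitochondrial glycerol phosphate dehydrogenase, at 5.65, 6.26 and 11.9 CPM in control and 5.01, 2.57 and 3.77 CPM in guide libraries (-1.07, SE 0.40, adjusted p = 0.772). Mdh1 (0.10, SE 0.17) and Mdh2 (-0.23, SE 0.15), the malate dehydrogenases, had the highest levels.

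Of 19 tested regulators, 1 had an unadjusted p under 0.05 (list median 0.06). Prkaa2, a catalytic subunit of the energy sensor AMPK, was at 13.6, 14.4 and 8.10 CPM in control and at 31.1, 30.9 and 34.9 CPM in guide replicates 1 to 3. The groups lay far apart (log2 fold change 1.423, SE 0.25, adjusted p = 0.106; adjusted p = 0.0565 without control replicate 3). DESeq2 called Prkaa2 alone in this list. Nxnl1, which encodes the rod-derived cone viability factor that acts on basigin and GLUT1 in cones, was at 412, 376 and 324 CPM in control and at 268, 459 and 431 CPM in guide libraries (0.06, SE 0.22). Hif1a was at 199 to 215 CPM in control and at 132 to 273 CPM in guide libraries (0.02, SE 0.25). Of 12 other tested targets of the hypoxia-inducible factors, 1 had an unadjusted p under 0.05 (list median 0.11). This was Ndrg1, at 201, 210.2 and 193 CPM in control and at 149.9, 119 and 167 CPM in guide libraries (-0.47, SE 0.15, adjusted p = 0.620), while Bnip3l, a mitophagy receptor, was at 153 to 165 and 178 to 188 CPM (0.21, SE 0.11, adjusted p = 0.969).

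Near-identical copies limit the precision of some levels. Gapdh had 79 other annotated genes that matched its coding sequence over at least 200 bases at 95% identity or more, 75 of them pseudogenes, and those counted in the files held 2.48% as many counts as Gapdh itself. For Ldha, Eno1, Pgk1, Tpi1 and Pgam1 this was 1.498, 2.10, 0.423, 0.991 and 5.01%. Reads without a unique position were set aside in the tables (4.23 to 6.25% of counts), and levels of genes with copies can be underestimated. Exons of 12 of the 31 genes overlap another annotated gene, and the library kit does not mark strand, so that reads of overlapping parts cannot be assigned. Pfkfb2 (19.5% of exon length), Pkm (15.3%) and Gpi1 (11.5%) had the largest overlaps.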

How the data were processed

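The deposited values are raw counts per gene, 1 table per library. Per the submitters' processing notes HTSeq 0.12.4, STAR 2.7.3a, DESeq2 1.42.0 and cutadapt are named, with the build GRCm38 (mm10). Annotation and strand setting: not given in the sources used here. Total RNA was amplified with a SMARTer Ultra Low kit, per the labels' protocols. The 5 entries that name no gene (21.6 to 23.7% of counts) were left out.

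Groups were compared with edgeR 4.0.16 (R 4.3.3) over all genes: filterByExpr (min.count 10, total 15), TMM factors (0.931 to 1.09), then glmQLFit and glmQLFTest on the group, without covariates. The threshold was 0.05 after Benjamini-Hochberg adjustment. The test was first tried on simulated counts, without an outlying library and with larger changes than those of most members. That trial gives no measure of power for these data. Libraries of a group come from separate animals, and none were close enough to be 1 library. CPM are counts over the TMM-scaled library size. Lengths are unions of GENCODE M21 exons, and copies were found with blastn 2.17.0. Isoform shares were compared by exact permutation over libraries. SDs and SEs cover the spread between libraries. Members and lists were chosen with earlier results of these data known. All 31 members are accounted for, with values per library for the leading isoform of each step, single-gene steps and members with an unadjusted p under 0.05 or groups that do not overlap. In other lists the 2 genes of highest level and up to 4 with an unadjusted p under 0.05 are named.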

Additional observations from a re-analysis of the deposited data

How the results depend on the processing

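Under 18 other fits (edgeR with other factors, filters, terms or libraries, the DESeq2 Wald test and limma-voom 3.58.1) and at an adjusted p under 0.1, 0 members were called in each. Over all genes, 54 were higher and 5 lower. DESeq2 called 185 and 57, no count filter 130 and 25, sex as a term 6 and 0, males only 0 and 0, and a threshold of 0.1 gave 83 and 8. Limma-voom called 2 lower and library size only, a setting chosen after seeing the data, 3 lower. Leaving out 1 library gave 14 to 80 higher and 0 to 9 lower. With the replicate number as a block 31 were higher and 1 lower. Deviations of same-numbered libraries correlated at 0.190, -0.0811 and 0.264 for replicates 1 to 3. The value of the replicate-3 libraries was the highest between any guide and control library. Guide replicate 1 correlated best with control replicate 2 (0.221). Whether the numbers pair the animals or mark a batch cannot be told from these values. The cause of these shifts was not tested.

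The log2 fold change of 11 of 30 members changed sign somewhere, none of them larger than 0.35 in size at first. Leaving out 1 library gave Pfkl -0.55 to 0.49, Pfkp -0.22 to 0.23, Pfkfb2 -0.056 to 0.13, Pfkfb3 -0.52 to 0.090, Pfkfb4 -0.66 to 0.059, Aldoa -0.050 to 0.11, Eno3 -0.10 to 0.62, Bpgm -0.14 to 0.33, Slc2a1 -0.35 to 0.021 and Slc16a3 -0.088 to 0.83. Without both replicate-3 libraries Pfkl was at 0.036 and Pfkp at 0.22. Pfkfb2 was at -0.013 with upper-quartile factors, -0.023 without the 50 most abundant genes in the library size, -0.063 with library size only and -0.0042 with no count filter. With library size only Aldoa was at -0.026 and Bpgm at -0.0093. With sex as a term, Aldoa, Pgam1, Bpgm and Slc16a3 were at -0.035, -0.11, -0.19 and -0.17, and in males only at -0.047, -0.12, -0.20 and -0.18. Without TMM factors the groups overlapped for Gpi1, Pfkm and Ldha and did not for Pfkfb1, Gapdh and Pkm. No guide-minus-control difference in the share of a leading isoform moved by more than 1 SD (the larger of the groups') with length, a library left out or males only. That measure is wide where 1 library stands apart. For Slc2a1 the SD was 11.4 points, and the difference fell from 7.68 to 1.11 points without control replicate 3. The shares themselves moved with length. The differences for Pfkl and Aldoa kept their sign with length but not with the libraries used. In males only, guide replicate 1 had 58.04% Pfkl and 93.36% Aldoa, below the control means of 59.84 and 93.43%. With 3 libraries a group, small differences are not detectable.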
